A study of Arabidopsis thaliana with 30 samples.

Results

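A set of 211 Arabidopsis genes stood lower in coronatine-sprayed than in mock-sprayed jazD leaves at 3 h and higher at 24 h. They were chosen by 2 values taken from the deposited TPM, a transcript abundance scaled by length and by the library's total, as the mean log2(TPM + 1) of the 3 coronatine libraries minus that of the 3 mock libraries: this difference had to be -1 or less at 3 h and 1 or more at 24 h. The set held 0.763% of the 27655 genes in the table and 1.11% of the 19005 genes that reached 1 TPM in 3 or more libraries and were tested. It took 5.28% of the 3999 genes that met the 3 h condition (14.5% of the table) and 5.94% of the 3554 genes that met the 24 h condition (12.9% of the table). The opposite order, higher at 3 h and lower at 24 h by the same steps, was met by 54 genes. Of the 211 members, 110 had a gene symbol and the other 101 are named by locus.

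Plants 26 days old received a spray of coronatine at 5 µM, or of water as the mock, and leaves were taken at 0, 1, 3, 12 and 24 h, with 3 replicates in each of the 10 groups. All 30 libraries, mock included, came from jazD, a line in the Col-0 background in which many JAZ genes are disrupted; the labels do not name the loci, and no unmutated line was analysed here. They were grown at 20 °C in long days, with 16 h light (100 µE) and 8 h dark. Nothing in the labels says that replicates were separate plants, so the p-values measure the spread between these samples, which may be technical.

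Coronatine is a bacterial toxin that mimics the plant hormone jasmonoyl-isoleucine. It binds the receptor COI1 together with JAZ proteins, which are repressors of MYC transcription factors, and leads to the breakdown of the JAZ proteins. In leaves the pathway is known for raising defence against chewing insects and for promoting loss of chlorophyll, and for opposing salicylate, a second defence hormone whose synthesis through ICS1 is directed by the regulators SARD1 and CBP60g. UDP-glycosyltransferases (UGTs) attach sugars to hormones, flavonols and toxins and so change their activity or solubility.

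Short elements in the promoters of the members are shown first, in the 250 bases before the annotated gene start, read from the TAIR10 genome at the positions the authors' tables give and written 5′ to 3′ on the gene's strand. Capitals mark TTGACC or TTGACT, 2 forms of the W-box known as a binding site of WRKY factors, and TGACG, the core bound by TGA factors, on either strand. The first 3 promoters are those of members with a W-box that recur in the results, and the last 3 are those of UGT genes that hold TGACG at about the same distance from the start.
SAG21, chr4:1046998-1047247, minus strand: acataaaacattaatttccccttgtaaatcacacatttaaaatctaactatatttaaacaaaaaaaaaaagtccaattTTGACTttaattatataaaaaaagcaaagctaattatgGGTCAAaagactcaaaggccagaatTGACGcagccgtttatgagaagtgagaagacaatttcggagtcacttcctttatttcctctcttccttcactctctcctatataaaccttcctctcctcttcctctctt
MLO2, chr1:3804186-3804435, minus strand: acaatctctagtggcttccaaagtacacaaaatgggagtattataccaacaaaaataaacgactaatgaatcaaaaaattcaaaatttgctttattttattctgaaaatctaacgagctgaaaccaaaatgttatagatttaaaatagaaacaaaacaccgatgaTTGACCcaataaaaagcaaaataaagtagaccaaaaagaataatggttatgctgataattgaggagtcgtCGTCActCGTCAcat
UGT87A2, chr2:12871884-12872133, plus strand: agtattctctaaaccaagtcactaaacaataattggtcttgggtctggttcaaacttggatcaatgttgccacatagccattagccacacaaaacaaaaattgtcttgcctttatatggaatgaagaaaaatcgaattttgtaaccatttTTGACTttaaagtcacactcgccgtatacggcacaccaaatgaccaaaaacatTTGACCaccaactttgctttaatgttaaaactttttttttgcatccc
UGT73B2, chr4:16347134-16347383, minus strand: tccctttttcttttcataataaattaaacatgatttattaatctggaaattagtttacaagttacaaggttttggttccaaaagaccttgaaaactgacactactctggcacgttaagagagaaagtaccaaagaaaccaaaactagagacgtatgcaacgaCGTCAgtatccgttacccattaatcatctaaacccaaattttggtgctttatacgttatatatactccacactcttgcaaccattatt
UGT73C5, chr2:15425017-15425266, minus strand: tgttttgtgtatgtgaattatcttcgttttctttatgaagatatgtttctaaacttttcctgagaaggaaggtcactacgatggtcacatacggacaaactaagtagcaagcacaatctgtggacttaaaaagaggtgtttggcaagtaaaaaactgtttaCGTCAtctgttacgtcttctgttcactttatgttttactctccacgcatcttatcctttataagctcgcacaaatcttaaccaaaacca
AT2G36780, chr2:15419155-15419404, minus strand: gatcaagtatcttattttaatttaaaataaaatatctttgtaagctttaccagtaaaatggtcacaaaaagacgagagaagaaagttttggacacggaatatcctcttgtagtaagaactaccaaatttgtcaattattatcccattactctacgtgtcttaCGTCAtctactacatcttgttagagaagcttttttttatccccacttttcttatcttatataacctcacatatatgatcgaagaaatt

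TTGACC or TTGACT was found in 91 of the 207 member promoters that could be read, 44.0%, beside 29.1% of the 18703 promoters of tested genes. TTGACT alone was in 34.3% of member promoters against 19.3% of all, and TTGACC in 19.3% against 12.8%. The same 2 W-box forms together were in 31.8% of promoters of genes that met only the 3 h condition and in 32.6% of those that met only the 24 h condition. TGACG was in 24.6% of member promoters against 22% of all. The G-box CACGTG was in 7.25% against 9.31%, its variant CACATG in 9.18% against 10.3%, ACGTGG, the core of abscisic acid response elements, in 8.7% against 11.2%, and CCGAC, the core of drought and cold response elements, in 8.7% against 14.9%. AAATATCT, an evening element, was in 6.76% against 4.94%, GATAAG in 13.5% against 13.2%, and CGCGT, the core bound by CAMTA factors, in 12.6% against 9.59%. The median GC content was 32.0% in member promoters and 32.8% in all promoters read. Both strands were searched, no motif searched contains another, CACGTG and ACGTGG can overlap, and a match is a description of letters in this window, with no statement about binding.

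**Figure D1:**
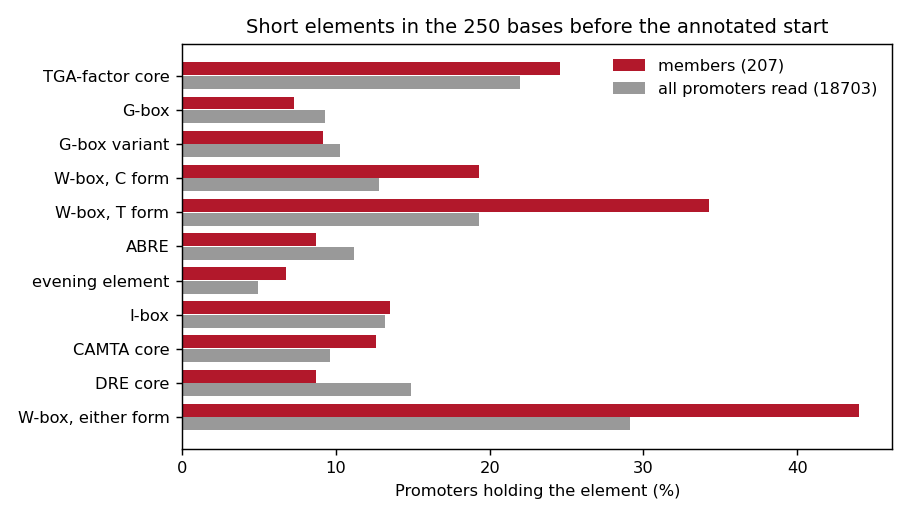
Share of promoters, in percent on the horizontal axis, that hold each short element on either strand in the 250 bases before the annotated start, for 207 members (red) and all 18703 promoters read (grey). Either form of the W-box stood at 44.0% in members and 29.1% in all promoters, and the DRE core CCGAC at 8.7% and 14.9%.

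Among the UGT members, 6 of 9 held TGACG, beside 24.6% of member promoters and 22% of all promoters read. The share over all tested UGT genes is not given here. TGACG started 88 bases before the gene start in UGT73B2 and AT2G36780 and 89 bases before it in UGT73C5, as the sequences above show. It occurred more than once in UGT75B1 and IAGLU. UGT73C5 and AT2G36780 lie in one tandem array on chromosome 2, so their promoters may share descent. SAG21 held TTGACT at 172 bases before its start, TTGACC at 134 bases and TGACG at 109 bases.

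At 0 h no member was called. Their median difference, coronatine minus mock on the log2(TPM + 1) scale, was 0.14, beside 0.02 over all genes tested, and 184 of 211 lay above 0. By limma with Benjamini-Hochberg adjustment 0 members and 0.0% of all genes tested passed. The smallest adjusted p of a member was 0.9. At an unadjusted p under 0.05 there were 18 members, all of them higher in the coronatine arm, and 1012 of all genes tested, 5.32%. Of the members in the authors' deposited table, 11 had an unadjusted p under 0.05 and none passed their adjusted p. All 3 coronatine libraries lay above all 3 mock libraries in 40 members, against 10% of all genes tested, and below them in 1, against 4.57%.

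The median difference of the members went from -0.31 at 1 h to -1.33 at 3 h, 0.13 at 12 h and 1.67 at 24 h, while that of all genes tested was -0.18, -0.46, -0.54 and -0.24. TPM is a share of each library, so a few genes that take a large share push all others down. On TPM rescaled with TMM factors, which bring the median of all genes to between -0.01 and 0.02 at each time, the members' medians were 0.11, -0.12, -0.89, 0.78 and 1.97 at 0, 1, 3, 12 and 24 h. On that scale 76 of the 211 genes met the rule. All 211 lay below 0 at 3 h and above 0 at 24 h there too, signs that choosing them on deposited TPM had largely fixed. A gene is therefore called higher or lower below only where limma gave an adjusted p under 0.05 both on the deposited TPM and on rescaled TPM, with the same sign. The differences and adjusted p-values printed are those on TPM as deposited, with their standard error. Rescaling moved the 12 h differences upward. MLO2 stood at -0.68 there in place of -1.37, and UGT73B2 at 4.1 in place of 3.41.

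**Figure D2:**
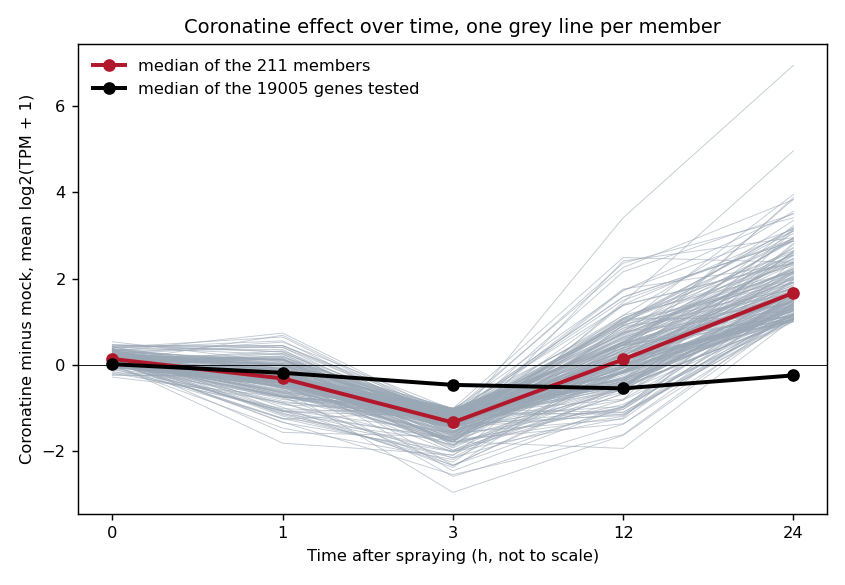
Difference between coronatine and mock leaves in mean log2(TPM + 1) at 0, 1, 3, 12 and 24 h (time not to scale), one grey line for each of the 211 members, with their median (red) and the median of the 19005 genes tested (black). The members' median was -1.33 at 3 h and 1.67 at 24 h, the times the rule used, and -0.31 and 0.13 at 1 h and 12 h.

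The values at 3 h and 24 h chose the genes and are a description. By the same calling rule 203 of 211 members were lower at 3 h, against 36.1% of all genes tested, and 211 were higher at 24 h, against 37.2%. The difference at 3 h ran from -2.95 for CYP71B23, a cytochrome P450, to -1.0, and at 24 h from 1.01 to 6.94 for UGT73B2, a flavonol glycosyltransferase. Just inside the 3 h threshold were AT4G20930, AT5G46080 and PUM5 at -1.0, -1.002 and -1.004, and just outside it AT1G03290, LSU4 and PYE at -0.998, -0.996 and -0.995. Just inside the 24 h threshold were ACA1, AT1G56060 and AT1G25480 at 1.009, 1.009 and 1.011, and just outside it ALDH6B2, AT4G09760 and AT2G17710 at 0.999, 0.986 and 0.983. In 16 members every coronatine library at 3 h was under 1 TPM, where the log2(TPM + 1) scale understates a difference.

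Levels in each arm over time are given as a description, since the rule used 3 h and 24 h. Over the members, the median TPM in coronatine leaves was 10.1, 7.81, 4.30, 14.4 and 36.3 at 0, 1, 3, 12 and 24 h, and in mock leaves 8.54, 10.1, 11.9, 12.9 and 8.67. Coronatine leaves had their lowest mean at 3 h in 192 members and their highest at 24 h in 207. Mock leaves had their highest mean at 12 h in 92 members and at 3 h in 78, and their lowest at 0 h in 72 and at 24 h in 66. From 3 h to 24 h the median change was 2.71 on the log2 scale in coronatine leaves, with a range of 0.78 to 8.19, and -0.44 in mock leaves, with a range of -2.03 to 1.5. Mock leaves stood lower at 24 h than at 3 h in 174 members, by 1 or more in 37, and the coronatine change was the larger in size in 206 and the mock change in the other 5. Together the members took between 1800 TPM, at 3 h, and 15200 TPM, at 24 h, as group means in the coronatine arm and between 3600 and 5130 TPM in the mock arm.

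**Figure D3:**
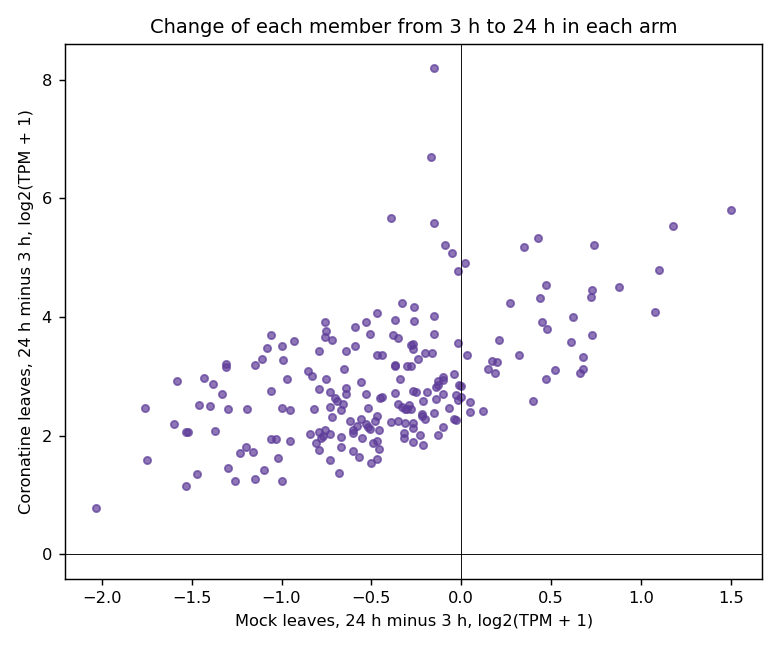
Change from 3 h to 24 h in mean log2(TPM + 1) for each member, in mock leaves (horizontal axis) and coronatine leaves (vertical axis). All 211 members lie above 0 on the coronatine axis, 210 of them at 1 or more, and 174 lie below 0 on the mock axis.

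In mock leaves alone, which the rule used only at 3 and 24 h, 75 members were called higher at 12 h than at 0 h, 35.5% against 20.7% of all genes tested, and 17 lower, 8.06% against 10.1%. In coronatine leaves 118 were called higher at 12 h than at 0 h, 55.9% against 30.9%, and 16 lower, 7.58% against 42.0%.

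At 1 h, before the times the rule used, 59 members were called lower in coronatine leaves, 28.0% against 15.5% of all genes tested, and 1 was called higher, against 9.52%. The other 151 were not called. All 3 coronatine libraries lay below all 3 mock libraries in 107 members, against 47.0% of all genes tested, and above them in 1, against 10.3%. At 12 h 81 members were called higher, 38.4% against 24.3%, and 17 lower, 8.06% against 41.7%, with 113 not called. The groups did not overlap in 90 members in the higher direction and 60 in the lower, against 24.8% and 62.2% of all genes tested. On rescaled TPM alone 150 members were called higher and 17 lower at 12 h, and on TPM as deposited alone 81 and 58. Shares of all genes tested on a single scaling are not given here. The signed difference was called higher at 12 h than at 1 h in 103 members and lower in 13, against 24.0% and 36.3% of all genes tested.

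Both neighbouring gene sets looked different at 12 h. They were cut by their values at 3 h and 24 h, so the comparison is a description. Of the 3788 genes in the table that met only the 3 h condition, 2448 were also at -1 or less at 24 h. Of the 3787 tested genes that met only the 3 h condition, 84.1% were called lower and 0.977% higher at 12 h, with a median difference of -1.64. Of the 3323 tested genes that met only the 24 h condition, 87.7% were called higher and 0.0602% lower, with a median of 1.1. The members, with a median of 0.13, lay between them. At 1 h 44.6% of the first set were called lower, and of the second 31.9% were called higher and 3.88% lower.

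The members took different paths between the 2 times. In all, 28 members were called lower at 1 h and higher at 12 h, 5 were lower at both times and 86 were called at neither. Shares of all genes tested in these combinations are not given here, so the counts have no background beside them. The 81 members higher at 12 h had a median difference of 2.16 at 24 h, the 113 not called 1.5, and the 17 lower at 12 h 1.27. The 17 also had the lowest median at 3 h of the 3 classes, -1.78, beside -1.26 and -1.35. These medians are descriptions of values the rule used.

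**Figure D4:**
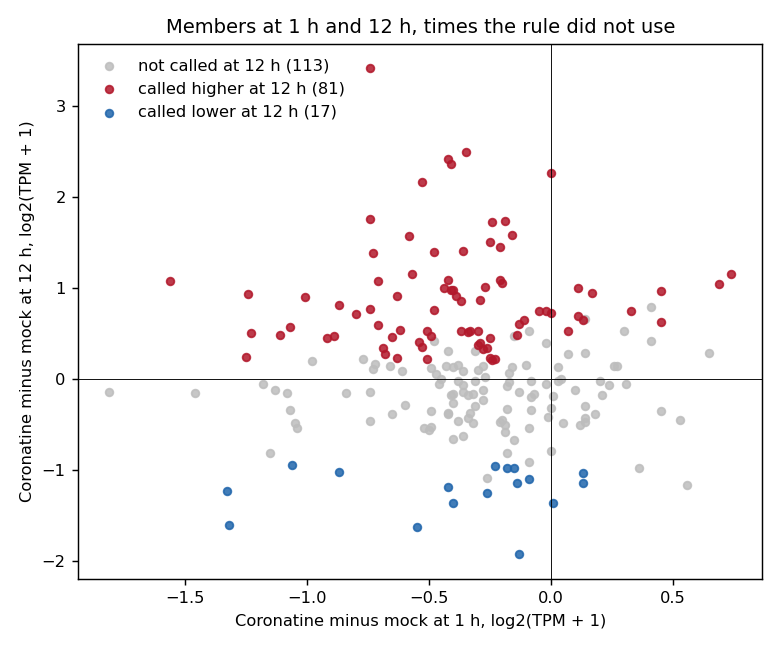
Difference between coronatine and mock leaves in log2(TPM + 1) at 1 h (horizontal axis) and 12 h (vertical axis), one point per member, coloured by its call at 12 h. The 81 members called higher and the 17 called lower at 12 h lie at both low and middle values at 1 h, and BEE3 has the lowest value at 1 h, -1.81.

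UGT genes made up 4.27% of the members and 0.558% of all genes tested, 9 of the 106 tested genes annotated as such. At 1 h 7 of the 9 were called lower and none higher, against 15.5% and 9.52% of all genes tested. At 12 h 5 were higher and 1 lower, against 24.3% and 41.7%. Over all 106 the counts were 31 lower and 24 higher at 1 h, and 40 higher and 39 lower at 12 h. The median difference of the 9 UGT members at 24 h was 3.13, beside 1.67 over all members, a description of values the rule used.

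UGT73B2, on chromosome 4 from 16345281 to 16347133, was at 5.01, 4.59 and 4.17 TPM in the coronatine libraries at 0 h and at 3.46, 4.24 and 4.27 in the mock libraries. At 1 h it was at 1.74, 1.87 and 1.46 TPM against 3.86, 3.33 and 3.3. At 3 h the values were 1.28, 0.61 and 0.85 TPM against 4.85, 3.49 and 3.69. It stood below mock in every library at both times, and above it in every library later. By 12 h it reached 188, 260 and 205 TPM against 20.9, 17.8 and 19.4. At 24 h the coronatine libraries held 541, 536 and 582 TPM and the mock libraries 3.58, 3.38 and 3.53. The difference was -0.74 ± 0.12 (SE, limma adjusted p = 1.8e-05) at 1 h and 3.41 ± 0.12 (limma adjusted p = 7.4e-19) at 12 h, and it had the largest change in the effect from 1 h to 12 h among members named by the rule, 4.16 ± 0.17 (limma adjusted p = 1.1e-16).

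UGT73B1, the neighbouring gene on the same strand, was nearly silent in coronatine leaves at 3 h, at 0.17, 0.09 and 0.17 TPM against 3.58, 3.39 and 4.90 in mock leaves. At 24 h it was at 58.0, 51.6 and 61.5 TPM against 3.14, 2.66 and 2.45. It fell at 1 h, by 1.24 ± 0.12 (limma adjusted p = 5e-09), and rose at 12 h, by 0.93 ± 0.12 (limma adjusted p = 9.1e-08). The third gene of this tandem array, UGT73B3, missed the 3 h condition with a difference of -0.73 and was at 60.3 ± 4.79 TPM (SD, n = 3) in coronatine leaves at 24 h against 1.33 ± 0.296.

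UGT73C5, listed as DOGT1 and known for glucosylating brassinosteroids and the fungal toxin deoxynivalenol, lies on chromosome 2 from 15423380 to 15425016. It was at 1.89, 1.91 and 0.97 TPM in coronatine leaves at 1 h against 5.26, 4.23 and 4.48 in mock leaves, a fall of 1.15 ± 0.16 (limma adjusted p = 2.5e-06) with no overlap. Its 12 h values were still 4.05, 3.62 and 3.65 TPM against 7.44, 6.94 and 7.78, lower in every library, but not called because on rescaled TPM the adjusted p was 0.21. At 24 h the values were 57.0, 41.7 and 68.3 TPM against 5.68, 5.18 and 5.21. Its neighbour UGT73C6 shared the early part alone, with differences of -1.93 at 3 h and -0.07 at 24 h, and AT2G36780 in the same array was at 19.1, 13.3 and 22.2 TPM at 24 h against 1.18, 0.99 and 0.87. Reads of such near copies may be split between them, so values within the UGT73B and UGT73C arrays are uncertain.

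UGT87A2, a glycosyltransferase tied to flowering time, showed no difference at 1 h that passed the test (0.00 ± 0.18, limma adjusted p = 1.0), with coronatine libraries at 32.0, 22.5 and 20.0 TPM and mock libraries at 22.8, 19.3 and 33.0. At 12 h it was at 186, 201 and 183 TPM against 40.8, 34.4 and 42.1, a rise of 2.26 ± 0.18 (limma adjusted p = 1.2e-11). IAGLU, an indole-3-acetate glycosyltransferase, was at 0.93, 1.05 and 0.94 TPM at 3 h against 5.11, 5.8 and 5.68, and at 116, 95.5 and 118 TPM at 24 h against 18.23, 16.4 and 17.7. It fell by 1.07 ± 0.08 at 1 h and rose by 0.57 ± 0.08 at 12 h, both called. IAGLU overlaps AT4G15545 on the other strand by 210 bases, a gene with a mean of 243 TPM over the libraries, and since no strand setting is given in the sources used here, reads of the overlap cannot be told apart. UGT75B1 was the UGT that was lower at 12 h, by -0.95 ± 0.10 (limma adjusted p = 1.8e-09), after -1.06 ± 0.10 at 1 h.

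Immune regulators and receptors formed a group of 18 members, put together after their values were seen. At 1 h 1 was called higher, PUB24, and 1 lower, MLO12, and at 12 h 5 were higher and 3 lower. Over all genes tested 9.52% were higher and 15.5% lower at 1 h, and 24.3% higher and 41.7% lower at 12 h, so the share of 5 in 18 is near the background. Of 15 genes on a salicylate list, 3 were members: ICS1, SARD1 and CBP60G. On that list 3 genes were called higher and none lower at 1 h, and 5 higher and 4 lower at 12 h. The higher ones at both times included EDS5, the transporter that exports the product of ICS1 from the plastid, and BGL2, a glucanase that is a salicylate marker. The lower ones at 12 h were EDS1, PAD4, NIMIN1 and ACD6. The list's median difference was 0.21 at 1 h and -0.67 at 12 h.

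ICS1, the isochorismate synthase that makes most salicylate, on chromosome 1 from 28070296 to 28074118, was at 44.8, 29.7 and 23.8 TPM in coronatine leaves at 1 h and at 27.9, 21.4 and 33.8 in mock leaves, fully overlapping. At 3 h it was at 11.3, 12.4 and 16.8 TPM against 47.5, 35.1 and 38.3. At 12 h the groups overlapped again, at 20.7, 19.4 and 18.5 TPM against 22.5, 18.9 and 25.8. At 24 h coronatine leaves held 71.0, 74.4 and 82.6 TPM and mock leaves 26.0, 25.8 and 22.6. The tested differences were 0.21 ± 0.19 at 1 h (limma adjusted p = 0.35) and -0.18 ± 0.19 at 12 h (limma adjusted p = 0.38), and the latter was 0.50 on rescaled TPM.

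SARD1 and CBP60G, related regulators of ICS1, were lower at 3 h and higher at 24 h, an order the rule required of every member. SARD1 was at 2.03, 2.87 and 4.46 TPM at 3 h against 20.1, 11.8 and 13.2, and at 20.5, 21.4 and 21.4 TPM at 24 h against 7.63, 7.46 and 5.48. CBP60G was at 7.29, 7.46 and 8.57 TPM at 3 h against 41.6, 22.2 and 28.2, and at 32.4, 32.7 and 31.5 TPM at 24 h against 15.2, 13.8 and 15.8. Both had lower coronatine values at 12 h, -0.67 ± 0.30 (limma adjusted p = 0.041) and -0.91 ± 0.27 (limma adjusted p = 0.0033), and neither was called, since the adjusted p on rescaled TPM was 0.99 and 0.41. WRKY60, which acts with other WRKY factors in salicylate and abscisic acid responses, was called lower at 12 h (-1.14 ± 0.21, limma adjusted p = 2.5e-05) and WRKY48 was not called at either time.

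MLO2, a membrane protein whose loss gives resistance to powdery mildew, was at 62.7, 52.3 and 45.1 TPM in coronatine leaves at 1 h against 69.0, 64.6 and 77.8. At 3 h it was at 13.9, 14.9 and 16.6 TPM against 101, 90.0 and 94.8. At 12 h it was still lower in every library, at 47.0, 48.6 and 40.5 TPM against 125, 114 and 118, a fall of 1.37 ± 0.12 (limma adjusted p = 6.4e-11). The difference on rescaled TPM was -0.68. At 24 h the order had turned, to 133, 121 and 157 TPM against 55.5, 54.7 and 47.3. MLO12, a close relative with an overlapping role, took the other path at 12 h, where it was higher (0.71 ± 0.13, limma adjusted p = 2e-05) after being lower at 1 h (-0.80 ± 0.13, limma adjusted p = 2.2e-05).

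RLP38, a receptor-like protein, was the member with the lowest difference at 12 h. It stood at 6.22, 3.81 and 2.82 TPM against 20.9, 17.37 and 17.24, -1.93 ± 0.26 (limma adjusted p = 1.8e-07), and at 13.0, 14.6 and 16.4 TPM at 24 h against 5.79, 7.26 and 6.28. RLP30 and RLP54 of the same family, ADR1-L2, a helper immune receptor, and CRK36, a cysteine-rich receptor kinase, were called higher at 12 h, with differences of 0.53, 0.21, 0.37 and 0.64. RLP30 lies within AT3G05350 on the same strand over 2554 bases, so its reads cannot be told apart from those of that gene. PUB24, a U-box ubiquitin ligase that dampens immune signalling, was the single member called higher at 1 h, at 15.6, 12.1 and 10.5 TPM against 7.95, 7.17 and 10.3 (0.53 ± 0.14, limma adjusted p = 0.0028).

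Calcium signalling and transport held 9 members, of which 1 was called lower at 1 h and 2 higher at 12 h, near or below the 15.5% and 24.3% over all genes tested. None was called higher at 1 h or lower at 12 h, against 9.52% and 41.7%. TCH3, a calmodulin-like protein induced by touch, had the highest mean TPM of all members with a symbol. It was at 249, 242 and 228 TPM at 0 h in coronatine leaves and 170, 239 and 232 in mock leaves, and at 1 h both arms were higher, at 635, 503 and 483 TPM and at 575, 580 and 715. At 3 h it was at 108, 113 and 140 TPM against 358, 301 and 303, and at 24 h at 523, 516 and 624 TPM against 243, 221 and 201. The 1 h arms overlapped and did not differ by the test (-0.21 ± 0.13, limma adjusted p = 0.17). MSS3, another calmodulin-like protein, fell at 1 h by 0.89 ± 0.13 (limma adjusted p = 6.2e-06) and rose at 12 h by 0.47 ± 0.13 (limma adjusted p = 0.0021). EDA39, annotated as calmodulin-binding, was not called at either time and was at 172, 181 and 210 TPM at 24 h against 74.8, 72.4 and 66.4.

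**Figure D5:**
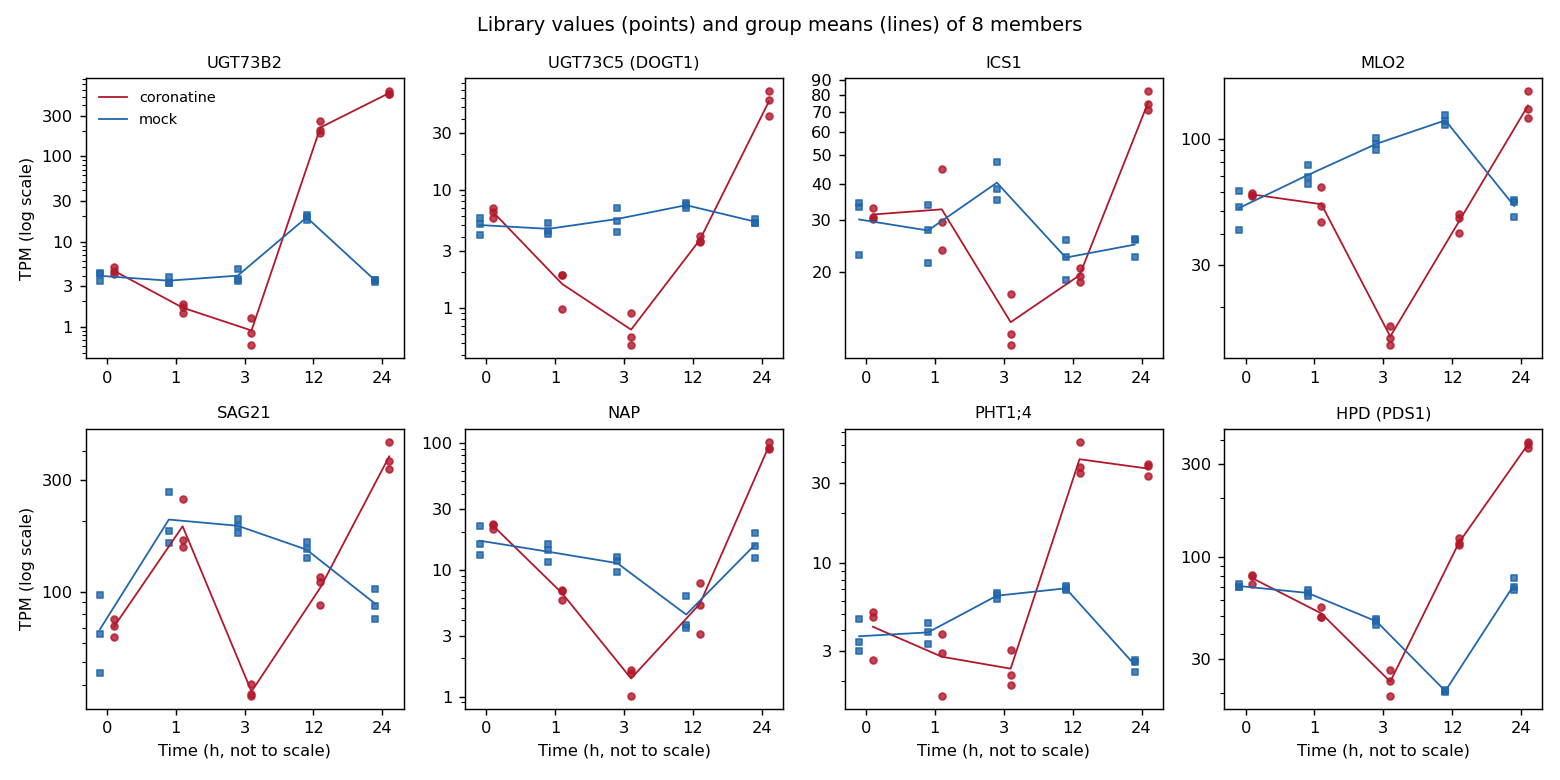
TPM on a log axis at 0, 1, 3, 12 and 24 h (time not to scale) for 8 members, with each library as a point and the group means joined by lines, coronatine in red and mock in blue. In all 8 panels the coronatine points lie below the mock points at 3 h and above them at 24 h. At 12 h they lie above the mock points for UGT73B2, PHT1;4 and HPD and below them for MLO2, UGT73C5 and SAG21. UGT73C5 and SAG21 were not called at 12 h, and the points of ICS1 and NAP overlap.

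Nutrient transport held 16 members: 6 were called lower at 1 h and none higher, and 6 were called higher at 12 h and none lower, where 15.5% of all genes tested were lower at 1 h, and 24.3% higher and 41.7% lower at 12 h. All 3 members of the nodulin MtN21 family, UMAMIT28, UMAMIT41 and UMAMIT45, a family that includes amino acid exporters, were lower at 1 h and higher at 12 h, out of 34 tested genes of that family of which 10 were lower at 1 h and 16 higher at 12 h. UMAMIT45 was at 4.26, 5.59 and 3.59 TPM at 1 h against 7.89, 8.84 and 6.92, a fall of 0.71 ± 0.13 (limma adjusted p = 7.9e-05). At 12 h it was at 22.2, 23.6 and 21.3 TPM against 9.61, 11.38 and 9.36, a rise of 1.07 ± 0.13 (limma adjusted p = 2.5e-08), and at 24 h at 91.3, 98.0 and 100.0 TPM against 12.7, 12.6 and 11.5.

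PUP18, of the purine permease family, was among those with the steepest climb. It was at 67.9, 57.9 and 61.1 TPM at 1 h against 81.6, 78.1 and 91.2, and at 10.7, 10.6 and 14.02 TPM at 3 h against 43.6, 41.8 and 37.7. The 12 h libraries held 66.2, 99.4 and 73.4 TPM against 15.7, 13.2 and 13.1, a rise of 2.41 ± 0.13 (limma adjusted p = 5.5e-15). AT1G68570, of the nitrate and peptide transporter family, was called lower at 1 h (-1.46 ± 0.13, limma adjusted p = 2e-09) and not at 12 h (-0.16 ± 0.13, limma adjusted p = 0.28), and held 256, 196 and 225 TPM at 24 h against 47.2, 53.1 and 48.6.

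LHT1, a high-affinity amino acid importer, was the 1 member among 15 genes of nitrogen remobilisation and amino acid transport. Of those 15, 1 was called higher and 2 lower at 1 h, against 9.52% and 15.5% of all genes tested. At 12 h 6 were higher and 4 lower, against 24.3% and 41.7%. LHT1 was at 8.34, 6.77 and 9.84 TPM at 3 h against 46.6, 32.0 and 32.6 and at 37.0, 31.4 and 45.9 TPM at 24 h against 14.3, 12.2 and 10.03, and was not called at 1 h or 12 h.

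Of 16 genes of phosphate starvation, 3 were members. At 1 h 1 of the 16 was called lower and none higher, against 15.5% and 9.52% of all genes tested. At 12 h 5 were higher and 4 lower, against 24.3% and 41.7%. PHT1;4, a phosphate importer of the plasma membrane, was at 3.78, 2.95 and 1.63 TPM at 1 h against 3.31, 3.93 and 4.43. It was at 2.17, 1.90 and 3.05 TPM at 3 h against 6.63, 6.11 and 6.51. At 12 h the 3 coronatine libraries held 34.2, 52.5 and 37.4 TPM and the mock libraries 7.09, 6.91 and 7.30, a rise of 2.36 ± 0.19 (limma adjusted p = 2.2e-11). PAP17, a purple acid phosphatase, and GDPD1, a glycerophosphodiester phosphodiesterase, were not called at 1 h or 12 h, and PAP17 was at 61.4, 63.0 and 65.1 TPM at 24 h against 12.9, 12.9 and 10.98. PAP17 overlaps AT3G17800 on the other strand by 122 bases and GDPD1 overlaps AT3G02030 by 681.

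Transcription factors held 14 members, of which 5 were called lower at 1 h, and 6 higher and 1 lower at 12 h, beside 15.5%, 24.3% and 41.7% of all genes tested. The group, like the other role groups, was formed after values were seen. NAP, a NAC factor that promotes leaf senescence and chlorophyll breakdown, on chromosome 1 from 26122139 to 26123421, was at 7.00, 6.83 and 5.76 TPM at 1 h against 14.3, 11.6 and 16.0, a fall of 0.98 ± 0.22 (limma adjusted p = 0.00068). At 3 h it was at 1.01, 1.53 and 1.62 TPM against 12.6, 9.66 and 11.8. At 12 h the groups overlapped, at 5.24, 7.86 and 3.13 TPM against 6.18, 3.69 and 3.45. At 24 h it was at 91.0, 89.8 and 102 TPM against 19.5, 15.5 and 12.3.

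Of 22 senescence regulators and SAG genes, 3 were members, NAP, JUB1 and SAG21. Over those 22, 6 were called higher and 3 lower at 1 h, against 9.52% and 15.5% of all genes tested. At 12 h 13 of the 22 were higher and 3 lower, against 24.3% and 41.7%. The higher ones at both times included the NAC factors NAC092, also called ORE1, NAC019, NAC055 and RD26. JUB1, a NAC factor that delays senescence, rose at 12 h by 1.04 ± 0.31 (limma adjusted p = 0.003), with coronatine libraries at 14.3, 16.8 and 10.9 TPM against 7.45, 4.89 and 6.49.

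SAG21, a late-embryogenesis-like protein of mitochondria, on chromosome 4 from 1046204 to 1046997, was at 63.7, 76.7 and 71.0 TPM in coronatine leaves at 0 h and 44.8, 65.7 and 96.5 in mock leaves. At 1 h both arms were higher and overlapped, at 248, 166 and 154 TPM and at 181, 161 and 265. At 3 h coronatine leaves were at 40.2, 35.8 and 36.3 TPM and mock leaves at 205, 191 and 178. At 12 h it was at 109, 115 and 87.2 TPM against 152, 139 and 162, lower in every library and not called, since the adjusted p on rescaled TPM was 0.48. At 24 h it was at 362, 335 and 436 TPM against 103, 86.9 and 76.2.

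HB-1, a homeodomain leucine-zipper factor, was at 15.1, 16.5 and 21.7 TPM at 3 h against 74.0, 69.6 and 65.2, and at 358, 323 and 362 TPM at 24 h against 59.0, 55.5 and 51.5. KNAT4, a KNOX factor, was lower at 1 h, at 11.8, 12.3 and 10.3 TPM against 30.4, 26.6 and 28.9 (-1.25 ± 0.09, limma adjusted p = 7.3e-12), and higher at 12 h by 0.24 ± 0.09 (limma adjusted p = 0.011). BEE3, a bHLH factor of brassinosteroid response, had the lowest difference of all members at 1 h, at 0.67, 0.80 and 0.61 TPM against 4.33, 4.68 and 5.95 (-1.81 ± 0.18, limma adjusted p = 1.1e-08). It is named after its values were seen, since its mean lay under the 5 TPM asked of genes named for a test.

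Hormone synthesis, inactivation and perception held 8 members, with UGT73C5, IAGLU and BEE3 counted here too; 6 were called lower at 1 h, and 3 higher and 1 lower at 12 h, where the shares of all genes tested were 15.5%, 24.3% and 41.7%. BR6OX2, the enzyme that makes brassinolide in the last step of brassinosteroid synthesis, was at 3.13, 2.94 and 3.39 TPM at 1 h against 9.77, 8.77 and 9.70, and at 5.44, 4.12 and 4.46 TPM at 12 h against 11.5, 13.0 and 12.5. Both were called, at -1.33 ± 0.09 (limma adjusted p = 9.3e-12) and -1.23 ± 0.09 (limma adjusted p = 3e-12). At 24 h it was at 47.1, 40.6 and 55.5 TPM against 8.58, 7.97 and 7.38.

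AAO3, the aldehyde oxidase of the last step of abscisic acid synthesis, rose at 12 h by 1.09 ± 0.07 (limma adjusted p = 3.5e-13). COR47, a dehydrin, was the 1 member among 22 tested genes of abscisic acid, cold and drought response, and rose at 12 h by 0.54 ± 0.17 (limma adjusted p = 0.0047), to 49.5, 51.0 and 51.6 TPM against 37.6, 34.5 and 31.7. Of those 22, 5 were called higher and 3 lower at 1 h, against 9.52% and 15.5% of all genes tested. At 12 h 13 were higher and 2 lower, against 24.3% and 41.7%.

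Lipid metabolism and transfer held 7 members, with 1 lower at 1 h, near the 15.5% of all genes tested, and 3 higher at 12 h, beside 24.3%. None of the 7 was called higher at 1 h or lower at 12 h, against 9.52% and 41.7%. GPAT6, a glycerol-3-phosphate acyltransferase of cutin synthesis, was at 2.88, 3.24 and 3.62 TPM at 3 h against 17.5, 13.8 and 13.5. It rose at 12 h, to 41.6, 49.4 and 42.5 TPM against 17.0, 14.2 and 15.6 (1.45 ± 0.10, limma adjusted p = 1.3e-12), and at 24 h it was at 470, 441 and 400 TPM against 12.2, 15.2 and 12.0. DPL1, the lyase that breaks down sphingoid base phosphates, rose at 12 h by 1.72 ± 0.10 (limma adjusted p = 3.6e-14).

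Among the members with the highest mean TPM were 3 enzymes of aromatic or redox metabolism, HPD, 4CL1 and FQR1. HPD, listed as PDS1 and the 4-hydroxyphenylpyruvate dioxygenase of tyrosine breakdown and tocopherol synthesis, was at 55.3, 49.3 and 49.3 TPM at 1 h against 67.6, 63.3 and 65.3. At 3 h it was at 23.1, 19.3 and 26.2 TPM against 48.2, 44.9 and 46.9, and at 12 h at 115, 126 and 117 TPM against 20.5, 20.2 and 20.7, a rise of 2.49 ± 0.07 (limma adjusted p = 2.9e-20). At 24 h it was at 391, 364 and 381 TPM against 78.2, 70.5 and 68.1. HPD overlaps AT1G06560 on the other strand by 122 bases, a gene with a mean of 4.43 TPM.

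4CL1, the 4-coumarate ligase of phenylpropanoid synthesis, took the slow path: at 12 h it was lower in every library, at 52.0, 50.3 and 52.9 TPM against 105, 94.4 and 105 (-0.96 ± 0.07, limma adjusted p = 8.4e-13), and at 24 h it was at 254, 212 and 248 TPM against 105, 102 and 105. FQR1, a quinone reductase induced by auxin, was not called at 1 h or 12 h. SPD1, a plastid protein needed for greening of seedlings, rose at 12 h by 1.5 ± 0.06 (limma adjusted p = 3.2e-18) and was at 502, 469 and 523 TPM at 24 h against 67.0, 64.1 and 63.8. DIN3, a subunit of the branched-chain keto acid dehydrogenase, was the 1 member among 22 sugar starvation genes and was not called at 1 h or 12 h. Of those 22, 6 were called higher and 4 lower at 1 h, against 9.52% and 15.5% of all genes tested. At 12 h 11 were higher and 4 lower, against 24.3% and 41.7%.

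Cytochrome P450 genes gave 5 members of 118 tested, none called at 1 h, with 3 higher and 2 lower at 12 h. Over the 118, 24 were higher and 19 lower at 1 h, against 9.52% and 15.5% of all genes tested. At 12 h 41 were higher and 47 lower, against 24.3% and 41.7%. CYP71B23 and its neighbour CYP71B3 were the members lower at 12 h. CYP71B23 was at 1.72, 1.88 and 2.81 TPM at 3 h against 28.1, 19.8 and 21.6, at 6.32, 7.21 and 4.5 TPM at 12 h against 20.2, 20.5 and 20.4 (-1.63 ± 0.19, limma adjusted p = 2.1e-08), and at 33.5, 34.0 and 35.5 TPM at 24 h against 16.8, 15.3 and 12.9. CYP71B19 of the same cluster was higher at 12 h (1.00 ± 0.16, limma adjusted p = 2e-06), while CYP71B22 and CYP71B24, next to CYP71B23 and CYP71B3, did not meet the rule and had differences of -1.77 each at 24 h.

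Outside these roles, PP2-A13, of the phloem protein family, went from 5.95, 6.4 and 6.66 TPM against 20.9, 22.8 and 18.5 at 1 h (-1.56 ± 0.10, limma adjusted p = 1.3e-12) to 12.6, 13.8 and 13.9 TPM against 5.44, 7.27 and 5.07 at 12 h (1.07 ± 0.10, limma adjusted p = 1.7e-10). AT2G39710, annotated as an aspartyl protease, was called lower at both times, by -1.32 ± 0.14 (limma adjusted p = 1.9e-08) and -1.61 ± 0.14 (limma adjusted p = 4.6e-11), and was at 16.6, 14 and 17.56 TPM at 24 h against 6.41, 5.8 and 5.96. AT1G77810, annotated as a galactosyltransferase, was called lower at 12 h (-1.36 ± 0.20, limma adjusted p = 7.5e-07). In all, 76 members fell in a role group and 135 in none.

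No member came from the lists for chlorophyll breakdown, autophagy, sugar transporters, the circadian clock, auxin, expansins, heat shock, cytokinin, iron, gibberellin or jasmonate. These 11 lists hold 170 tested genes, and members are 1.11% of genes tested, so a count of 0 is near the background. On the jasmonate list 19 of 27 genes were called higher and 2 lower at 1 h, against 9.52% and 15.5% of all genes tested. At 12 h 21 were higher and 1 lower, against 24.3% and 41.7%. Members lay on chromosomes 1 to 5 as 27.0, 12.3, 23.7, 15.6 and 19.4% of the set, beside 26.4, 15.2, 19.7, 15.3 and 23.3% of genes tested. Adjacent members occurred as 6 pairs, among them UGT73B2 with UGT73B1, CYP71B23 with CYP71B3, and AT1G01770 with PLIM2b, which overlap each other by 131 bases. In all 30 members overlapped another annotated locus.

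Levels of cell type markers are given beside the members' values. In bulk leaves fewer cells of a type and less RNA per cell cannot be told apart. The 4 mesophyll markers summed to 47100 to 53800 TPM in coronatine leaves at 3 h against 54800 to 60800 in mock leaves, to 10600 to 14200 against 42000 to 44600 at 12 h, and to 3490 to 5650 against 59700 to 61500 at 24 h. The 4 epidermis markers summed to 58.5 to 85 TPM against 230 to 308 at 3 h and to 10.4 to 17.0 against 352 to 365 at 24 h, and all 4 were called lower at 1 h and 12 h. The 6 guard cell markers summed to 114 TPM in each coronatine library at 24 h against 42.9 to 45.3, and the 3 xylem markers to 59.9 to 70.7 against 30.8 to 36.4. In each of these lists 1 gene had a difference of 1 or more at 24 h, KAT1 among the guard cell markers, at 61.2 ± 3.03 TPM (SD, n = 3) against 5.73 ± 0.296, and XCP1 among the xylem markers, at 27.7 ± 3.49 against 9.83 ± 0.174. The 4 phloem markers summed to 159 to 179 TPM against 216 to 284 at 3 h and to 242 to 257 against 259 to 271 at 24 h. The 2 trichome markers summed to 1.49 to 2.64 TPM against 5.87 to 12.2 at 3 h and to 2.82 to 4.3 against 5.91 to 8.67 at 24 h. The 3 flower markers were under 1 TPM in all libraries. None of these markers is a member, and their part in the members' values was not tested. Replicates of a group had Spearman correlations of 0.984 to 0.990 over genes, and TPM keeps no depth, so depth is unknown.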

How the data were processed

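The authors deposited TPM per gene for 27655 genes and 30 libraries, with library sums from 999999 to 1000001. RSEM 1.3.3, DESeq2 (given as 3.12) and the build TAIR10 are named in the submitters' processing notes. The step each served, the aligner and the strand setting are not given in the sources used here. A further deposited table for each time holds, per the file headers, a base mean (a normalized signal), a log2 fold change with its standard error on the log2 scale, a test statistic (a score), a p-value and its adjusted form, used here as an alternative and for coordinates. TPM keeps no depth, so no counting interval is given.

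The members, lists and tests were chosen with earlier results of these data known, and the 7 role groups after members' values were seen. Genes reaching 1 TPM in 3 or more libraries were tested (19005, all 211 members among them) as log2(TPM + 1), which understates differences of low genes. A mean per group was fitted over all 30 libraries with limma 3.58.1 (R 4.3.3, trended prior variance), two-sided, with Benjamini-Hochberg adjustment at 0.05 over all genes within each comparison. A call needed the same sign on deposited TPM and after rescaling with TMM factors (trims of 30% on log ratios and 5% on mean values). The procedure was tested on simulated data.

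Named genes were members on one of the 18 functional lists, the 10 with a symbol and the largest change in difference from 3 h to 24 h (mean TPM of at least 10 in a group), the 10 with a symbol and the highest mean TPM, for 1 h and 12 h the 5 called each way with the largest difference (5 TPM or more in the higher group), for the change from 1 h to 12 h the 3 each way, and those at the thresholds. 1 gene and 1 promoter that these rules would show are not reported here. Other named genes were chosen after their values were seen, for a role, family or neighbour. Symbols came from RefSeq, where 27445 loci had an entry. Promoters were read from the RefSeq TAIR10.1 genome at TAIR10 positions: of 32833 loci in both annotations, 32830 had the same chromosome and strand and 54.5% shared a start or an end. Tables and figures were made with Python 3.11.15, pandas 2.3.3, numpy 2.4.6 and matplotlib 3.10.9. Alternatives were other pseudocounts, filters and scalings, the authors' tables, a replicate block and leaving out each library.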

Additional observations from a re-analysis of the deposited data

Results flagged for a closer look

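The coronatine effect changed between 1 h and 12 h in 6 members named for that test, each by limma's test of the difference itself, on the log2(TPM + 1) scale. UGT73B2 had the largest change, 4.16 ± 0.17 (SE, limma adjusted p = 1.1e-16), from lower in 3 of 3 coronatine libraries at 1 h to higher in 3 of 3 at 12 h. HPD, listed as PDS1, changed by 2.83 ± 0.10 (limma adjusted p = 1.7e-17) and PUP18 by 2.83 ± 0.19 (limma adjusted p = 7.3e-13), each with the same turn in every library. Of all genes tested, 47.0% lay lower without overlap at 1 h and 24.8% higher without overlap at 12 h. PUP18 was not called at 1 h. In the other direction RLP38 changed by -1.80 ± 0.37 (limma adjusted p = 0.0001) and AT1G77810 by -1.37 ± 0.28 (limma adjusted p = 0.00011). AT5G26690 changed by -1.73 ± 0.46 (limma adjusted p = 0.0017), with a wide spread at 1 h. Its coronatine libraries then stood at 13.3, 8.43 and 4.10 TPM and its mock libraries at 4.66, 2.94 and 8.70. With all libraries, the larger limma adjusted p on the 2 scalings was 0.014 for AT5G26690, 0.002 for RLP38 and 0.0067 for AT1G77810. For AT5G26690 it was 0.061 without coronatine replicate 1 and 0.059 without mock replicate 2 at 1 h. In both cases the change was no longer called.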

How the results depend on the processing

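The size of the set moved with the pseudocount and the scaling. It counted 102 genes on TMM-rescaled TPM (76 of the 211 among them), 78 after quantile scaling (69 shared), 406 from the log2 fold changes of the authors' deposited table (115 shared), 457 with a pseudocount of 0.1 (211 shared), 61 with 5, and 195 to 243 with a library left out. Called members at 12 h were 98 by the rule on both scalings, 167 on TMM-rescaled TPM alone, 161 after quantile scaling and 163 in the authors' deposited table; the higher and lower counts were 81 and 17, 81 and 58 on TPM alone, 150 and 17 on TMM, 139 and 22 on quantile scaling, and 146 and 17 in the authors' deposited table. In the authors' deposited table, where 207 members had a value, 8114 of 21766 genes were higher and 8353 lower at 12 h. Shares of all genes on a single scaling are not given here, so those member counts have no background beside them. TPM alone called 110 members at 1 h and 141 for mock leaves at 12 h against 0 h. ICS1 at 12 h turned from -0.18 to 0.50 on TMM and 0.48 in the authors' deposited table, and DIN3 from -0.38 to 0.26 on TMM and in the authors' deposited table and 0.24 on quantile scaling; neither was called by the rule on both scalings. With a library left out, called members ranged from 54 to 64 at 1 h, 84 to 99 at 12 h, 111 to 116 for 12 h against 1 h, 76 to 97 for mock and 122 to 136 for coronatine leaves at 12 h against 0 h, and stayed 0 at 0 h. The 17 lower at 12 h became 11 without coronatine replicate 3, the 1 higher at 1 h became 8 without coronatine replicate 3 and 7 without mock replicate 3, and the 13 with a lower signed difference at 12 h than at 1 h became 7 without coronatine replicate 1 or mock replicate 2 at 1 h. The cause of these shifts was not tested. Replicate numbers did not pair the samples (correlations of deviations -0.254 to 0.122, 2 of 15 above 0.1); with the replicate block 0, 60, 98, 116, 93 and 134 members were called at 0 h, 1 h and 12 h, for 12 h against 1 h, and for mock and coronatine leaves at 12 h against 0 h. Of 750 values for single genes under alternatives, 691 kept call and sign, 25 that were not called changed sign, 27 gained a call, 2 lost it and 5 reversed with a call on one side.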
